A study of Mus musculus with 22 samples.

Results

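Of the 18971 genes tested outside the triplicated part of mouse chromosome 16 (Mmu16), 25 passed the test for a genotype difference only when the hippocampus (HIP) and entorhinal cortex (EC) of each animal were averaged. For each gene, the log2 CPM (counts scaled to the library's total, on a log2 scale) of the HIP and EC libraries of an animal were averaged to 1 value, and 6 Ts66Yah animals were compared with 5 wild-type (wt) animals. A member was a gene with a Benjamini-Hochberg adjusted p under 0.05 in that average (limma) and at or above 0.05 in HIP alone and in EC alone. Of the 25, 15 were higher and 10 were lower in Ts66Yah. The largest increases were those of Bc1, a short neuronal RNA, and of 3 processed pseudogenes. All of these were lowest in the same wt libraries, HIP of replicates 2 and 3 and EC of replicates 1 and 4. Decreases among the 25 included the microglial receptor gene Trem2 and the lipoxygenase gene Alox12b. Since the fit of the average chose these genes, their fold changes and adjusted p-values in it are given as a description.

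RNA-Seq was performed on both regions of 11 male mice aged 5 to 6 months, with 5 wt and 6 Ts66Yah animals and 22 libraries. Ts66Yah mice carry an additional, freely segregating minichromosome with the distal part of Mmu16 that is homologous to human chromosome 21, and lack the centromeric Mmu17 part that the minichromosome of the older Ts65Dn line also carries. The wt animals were littermates without the minichromosome, and no treatment of either group is stated. The Ts66Yah line descends from 1 founder male, so that carriers share the same engineered chromosome.

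Trisomy raises the dose of the genes on the additional chromosome, and expression of genes elsewhere in the genome may change in turn. Processed pseudogenes are DNA copies of messenger RNAs that were inserted back into the genome; as they remain nearly identical to the genes they came from, short reads can be difficult to assign between copy and source. Averaging the regions of an animal favours genes that differ in the same direction in both, and reduces the spread wherever the deviations of the regions do not run together.

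The total count per library was between 25.9 and 50.1 M reads. As a check of the genotype labels, the median over the 103 tested segment genes (from Mir155 to the end of Mmu16) was 0.57 ± 0.018 log2 units above the wt mean in Ts66Yah (SD, n = 6; lowest animal 0.54) and -0.0046 ± 0.011 in wt (SD, n = 5). The groups did not overlap, and the difference of 0.57 log2 units, or 1.49-fold, had an exact two-sided permutation p of 0.0022, the smallest that 462 splits can give.

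Outside the segment, 50 genes were called in the average, which is 0.264% of the genes tested, with 30 higher in Ts66Yah (0.158%) and 20 lower (0.105%). In HIP alone, 56 genes were called (0.295%), and in EC alone 4 genes (0.0211%). Among the 50 genes called in the average, 22 were also called in HIP, 1 in EC and 2 in both, and the remaining 25 are the genes described here. Conversely, 33 genes called in a region were not called in the average, 32 of them in HIP only. At an unadjusted p under 0.05, 1882 genes outside the segment differed in the average, 2105 in HIP and 1110 in EC.

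All 25 genes had the same sign in HIP and in EC, as did 12644 of the 18971 genes tested. In HIP 23 of them had an unadjusted p under 0.05, in EC 23, and in both 21, but none passed the adjustment in either region. The average uses the same libraries, so that these counts are not independent of the choice of the genes. The animal averages of wt and Ts66Yah did not overlap for 24 of the 25, the exception being Bc1, against 1.41% of all genes outside the segment. The rule selected on these same averages, so that this separation is a description and no further evidence. Within a region, the libraries of the genotypes did not overlap for 10 members in HIP and 8 in EC, against 1.50% and 0.622% of all genes. In the plot of both regions' fold changes, the members lie along the diagonal.

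**Figure D1:**
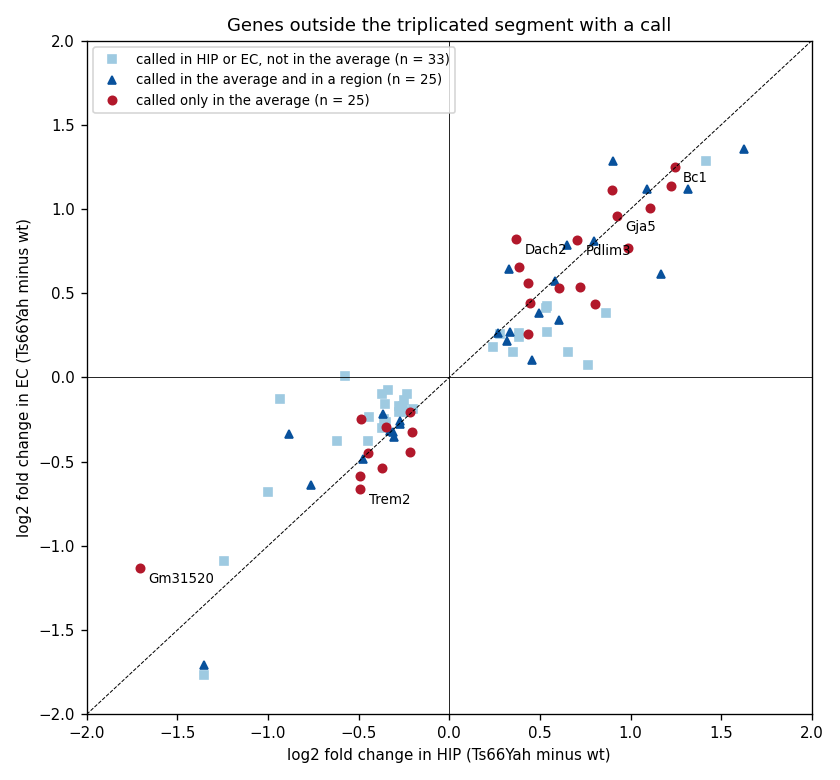
Log2 fold change (Ts66Yah minus wt) in HIP on the horizontal axis and in EC on the vertical axis for genes outside the triplicated segment with an adjusted p under 0.05 in at least 1 fit; each point is a gene and the dashed line marks equal change. The 25 genes called only in the average (red) have the same sign in both regions, from -1.71 in HIP and -1.13 in EC for Gm31520 to 1.24 and 1.25 for Bc1.

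The median SD of the members within genotypes was 0.16 log2 units in the average, compared with 0.22 in HIP and 0.28 in EC. Over all genes outside the segment it was 0.15 in the average, 0.17 in HIP and 0.21 in EC, so that the members were more variable than the median gene in each region but close to it in the average. The SD of the average was a median of 0.524 times that of the regions (root mean square of both), whereas this ratio was 0.793 over all genes outside the segment and 0.792 for the other 25 genes called in the average. The deviations of an animal's HIP and EC libraries from their genotype means had a median correlation of -0.46 over the 11 animals for the members, and 18 of 25 (72%) had a negative value. For all genes outside the segment, the median was 0.29 and 24.1% were negative, and for the other 25 genes called in the average the median was 0.33. Hence, over these 11 animals, a high HIP value tended to go with a low EC value for most of these genes. The genes are not independent in this. All 8 members with the pattern of Bc1 described below had a negative value, and they share their lowest wt libraries. Over the 15 higher members, the median deviation of a library ran from -0.58 to 0.372 in wt and from -0.121 to 0.227 in Ts66Yah. As the spread of the average is part of what the rule selects on, these values are a description.

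**Figure D2:**
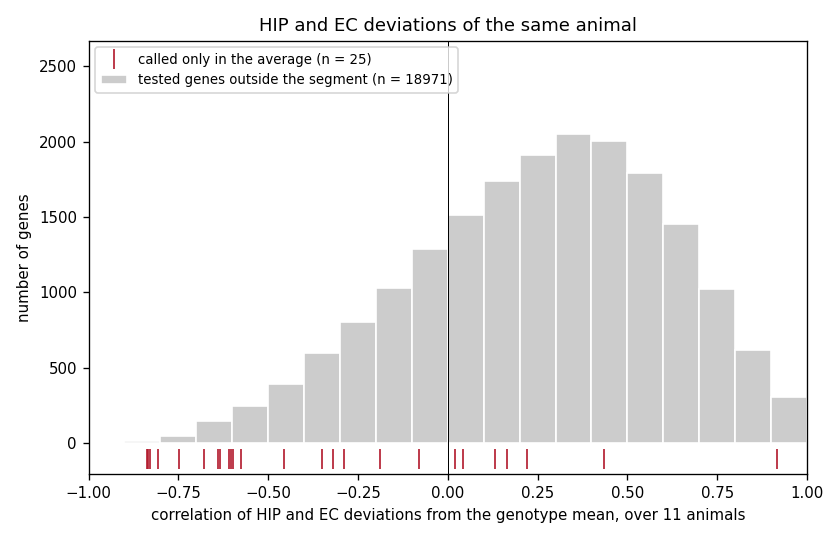
Histogram of the correlation between HIP and EC deviations from the genotype mean over 11 animals, for all 18971 tested genes outside the segment (grey; vertical axis, number of genes); red ticks below it mark the 25 genes called only in the average. Most ticks lie left of 0, from -0.84 for Dach2 to 0.92 for Trem2, whereas the grey distribution has its median at 0.29.

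**Figure D3:**
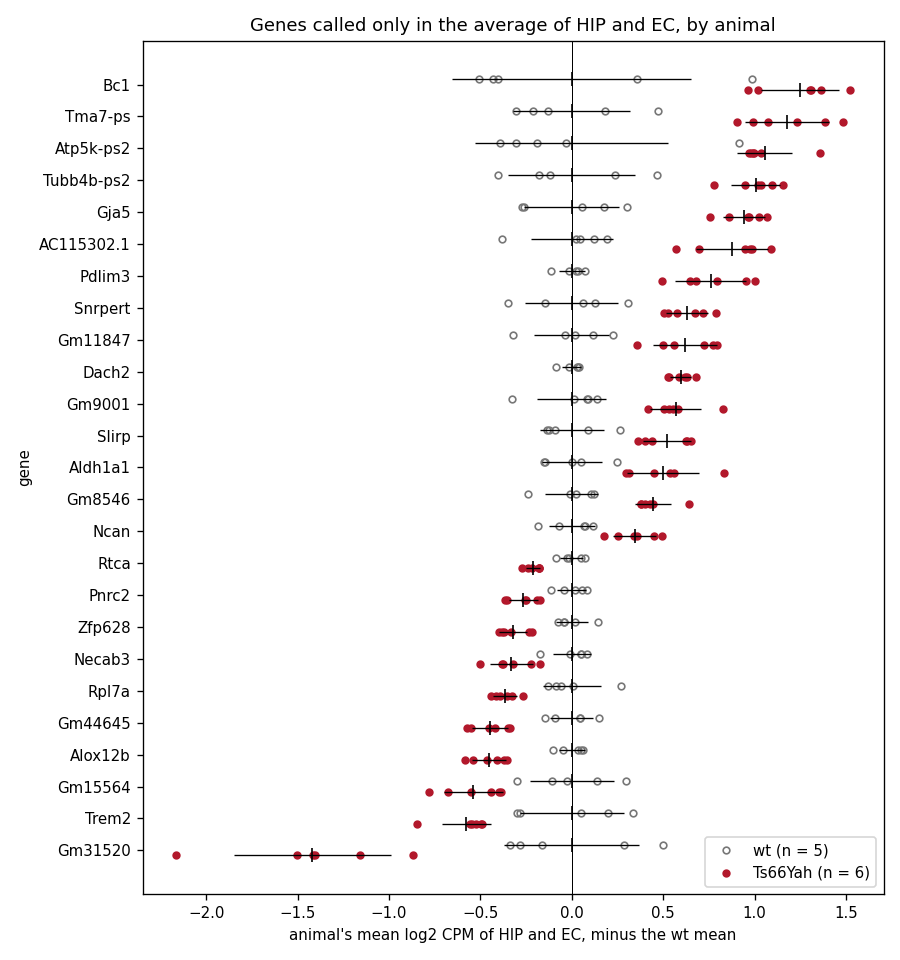
Each animal's mean log2 CPM of HIP and EC minus the wt mean for the 25 genes, with open grey circles for 5 wt and filled red circles for 6 Ts66Yah animals; black ticks and bars give the mean and SD. The groups overlap only for Bc1, whose highest wt animal (0.99) lies above the lowest Ts66Yah animal (0.96).

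Bc1 showed the largest increase. It encodes a small untranslated RNA of neuronal dendrites, made by RNA polymerase III, that represses translation and contains an internal stretch rich in A. The gene lies at chr7:144914470-144914637 (GRCm38, plus strand, annotated as a lincRNA). Its 168 bases are shown because 7 other members follow its pattern across libraries; the 40 consecutive bases richest in A (35 of 40) are in capitals.

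Bc1: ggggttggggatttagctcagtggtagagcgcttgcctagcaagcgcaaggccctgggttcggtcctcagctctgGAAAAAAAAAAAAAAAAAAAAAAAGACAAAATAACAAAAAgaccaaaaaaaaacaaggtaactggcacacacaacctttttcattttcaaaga

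The animal averages of Bc1 were 9.83, 9.72, 10.59, 9.80 and 11.22 log2 CPM in wt replicates 1 to 5, and ranged from 11.20 over a median of 11.54 to 11.75 in Ts66Yah. Wt replicate 5 lay within the Ts66Yah range, and the other wt animals lay below it. The difference was 1.25 ± 0.23 log2 units (SE), or 2.37-fold, with an adjusted p of 0.026 (limma). On the counts it was smaller, at 0.81 both with edgeR (adjusted p = 0.098) and with DESeq2 (adjusted p = 0.024).

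The libraries behind these averages did not form a uniform wt group. In HIP, Bc1 stood at 2003, 242, 583, 2005 and 2109 CPM in wt replicates 1 to 5, and at 1880 to 3093 CPM in Ts66Yah. In EC, the wt libraries held 412, 2961, 4046, 395 and 2691 CPM, and those of Ts66Yah 2602 to 3854 CPM. Thus wt replicates 2 and 3 were low in HIP only and wt replicates 1 and 4 in EC only, whereas the other 6 wt libraries lay within or, for wt replicate 3 in EC, above the Ts66Yah range of their region. No Ts66Yah library was low. The call of Bc1 was lost without wt replicate 1, 2 or 4 and without Ts66Yah replicate 2, 3, 4 or 5 (adjusted p = 0.087 without wt replicate 1).

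Another 7 members had the same 4 lowest libraries, namely HIP of wt replicates 2 and 3 and EC of wt replicates 1 and 4. These were the pseudogenes Tma7-ps, Atp5k-ps2, Tubb4b-ps2, AC115302.1, Snrpert and Gm11847, and the coding gene Slirp. This arrangement was found for 91 of the 18971 genes outside the segment (0.480%), of which 47 were pseudogenes and 8 were members. The correlation of their library deviations with those of Bc1, over 22 libraries that are the same for every gene, was between 0.798 (Snrpert) and 0.950 (Tubb4b-ps2). The other 17 members lay between -0.654 (Gm15564) and 0.37 (Zfp628). Besides Bc1, 58 genes outside the segment had a value of at least 0.8, a limit set after the values were seen, with a median exon length of 619 bases and 31 pseudogenes among them. The closest gene that is no member was Rpl19-ps11 (0.955), followed by the ribosomal protein genes Rpl36 (0.949) and Rps29 (0.943), and neither of these had an adjusted p under 0.05 in the average. What these libraries share was not tested. Over 1255 other processed pseudogenes the median deviation of a library was between -0.12 and 0.17 log2 units, and over 298 other genes with under 400 exon bases between -0.17 and 0.23. Over the 8 pseudogenes among the higher members, which the fit chose, it was -0.97 to 0.72. In HIP of wt replicates 2 and 3 and EC of wt replicates 1 and 4, the short genes had -0.173, -0.01, -0.118 and -0.059. The other processed pseudogenes had -0.115, 0.029, -0.061 and 0.023 there. In EC of Ts66Yah replicate 4 the values were -0.142 and -0.115.

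**Figure D4:**
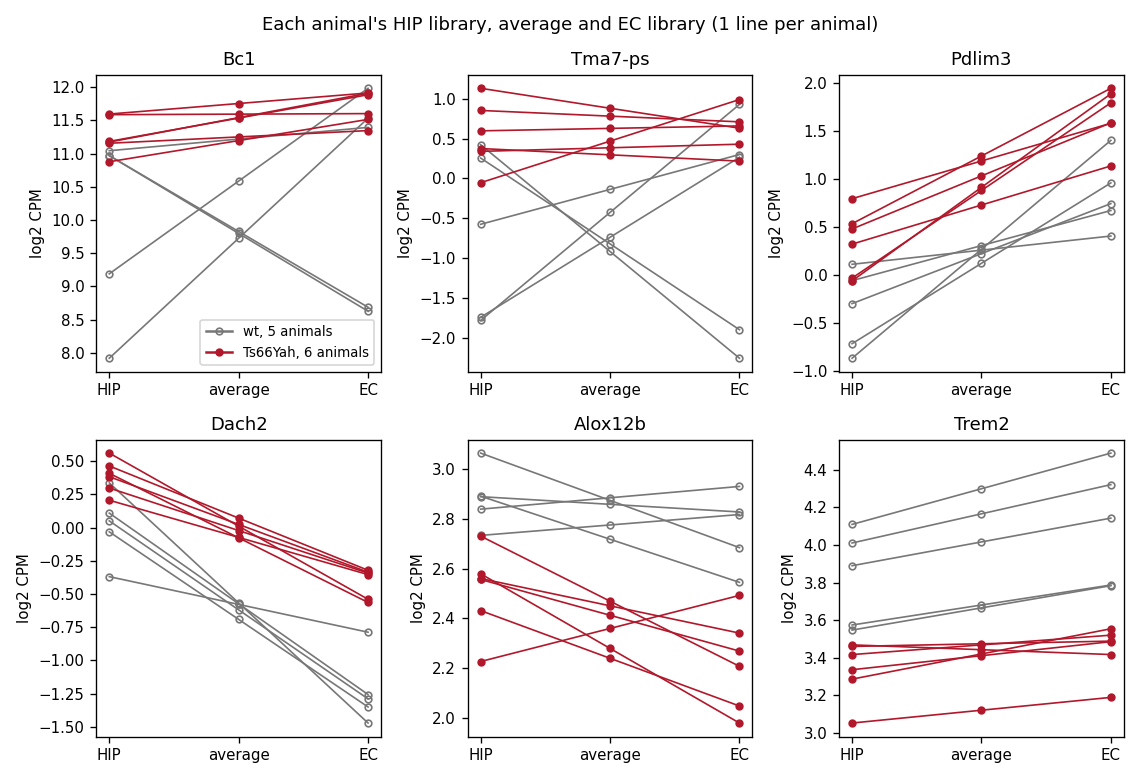
Log2 CPM of 6 members in the HIP library, the average and the EC library of each animal; each line is an animal, grey for 5 wt and red for 6 Ts66Yah. For Bc1 and Tma7-ps, 2 wt lines fall and 2 rise steeply from HIP to EC and meet in the middle, for Dach2 the averages of wt lie between -0.69 and -0.57, and for Trem2 the lines run in parallel.

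Tma7-ps is a processed pseudogene of Tma7, a gene of the translation machinery, at chr1:171711088-171711282 (plus strand). Its 195 bases are shown because they differ from the aligned Tma7 transcript at only 2 positions, in capitals, so that a read outside these positions has the same sequence in both. Its transcript had 98.97% identity to that of Tma7, and 68.5% of its 50-base windows, the read length, occurred in a transcript of another gene.

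Tma7-ps: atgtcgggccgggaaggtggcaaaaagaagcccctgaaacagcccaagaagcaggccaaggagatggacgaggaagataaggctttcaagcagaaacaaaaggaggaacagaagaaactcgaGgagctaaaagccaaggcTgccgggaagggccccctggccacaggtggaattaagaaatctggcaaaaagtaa

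For Tma7-ps the wt averages were -0.82, -0.74, -0.42, -0.91 and -0.14 log2 CPM, and those of Ts66Yah ran from 0.30 over a median of 0.55 to 0.88. The groups were separate, with a difference of 1.18 ± 0.17 (SE) and an adjusted p of 0.0026 (limma). In EC, wt replicates 1 and 4 had 7 and 5 reads of Tma7-ps, and the highest library of either region had 89. The source gene Tma7 stood at a log2 fold change of 0.10 (adjusted p = 0.86).

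Atp5k-ps2 (chr2:173984482-173984691, minus strand) is a copy of Atp5k, which encodes a small membrane subunit of ATP synthase. Its 210 bases are shown, with the 7 aligned bases that differ from Atp5k in capitals. The alignment runs from base 1 to 208, and 2 bases of Atp5k in it are missing from the pseudogene. It is given as a contrast to Tma7-ps: only 1.24% of the 50-base windows of Atp5k-ps2 occurred in another gene's transcript.

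Atp5k-ps2: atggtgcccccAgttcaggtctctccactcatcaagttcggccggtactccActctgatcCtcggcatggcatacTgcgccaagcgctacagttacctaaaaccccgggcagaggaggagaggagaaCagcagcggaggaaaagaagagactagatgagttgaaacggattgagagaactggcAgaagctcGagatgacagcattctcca

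Its wt averages were 0.65, 0.74, 1.01, 0.85 and 1.96 log2 CPM, and Ts66Yah ranged from 2.01 over 2.03 to 2.40. Wt replicate 5 came within 0.1 log2 units of the lowest Ts66Yah animal, whereas the other wt animals were at 1.01 or below. The difference was 1.06 ± 0.20 (SE), and Atp5k itself stood at 0.24 (adjusted p = 0.29). The library deviations of Atp5k also ran with those of Bc1, with a correlation of 0.848 over 22 libraries.

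Tubb4b-ps2 (chr1:24594087-24595423), a copy of the beta-tubulin gene Tubb4b with 96.3% identity, had averages of 0.72, 1.0, 1.36, 0.94 and 1.59 in wt and of 1.90 over 2.15 to 2.28 in Ts66Yah. The groups did not overlap, and the difference was 1.01 ± 0.14 (SE; adjusted p = 0.0026). AC115302.1 on Mmu18, a copy of Chmp3, a component of the membrane-severing ESCRT machinery, had averages of -0.44, -0.01, 0.06, -0.04 and 0.14 in wt and of 0.51 over 0.90 to 1.03 in Ts66Yah, a difference of 0.88 ± 0.14 (SE). Neither source gene passed the test, with log2 fold changes of 0.06 for Tubb4b and -0.04 for Chmp3.

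Snrpert is a copy of Snrpe, a core protein of spliceosomal particles, and lies within Rnf24 on the same strand. It rose from wt averages of -0.22, 0.25, 0.19, -0.02 and 0.43 to 0.63 over 0.75 to 0.92 in Ts66Yah (0.63 ± 0.13, SE; adjusted p = 0.046). Gm11847, a copy of the RNA-binding protein gene Hnrnpa3, was at 0.27, -0.07, 0.37, 0.21 and 0.47 in wt and between 0.61 and 1.05 in Ts66Yah, with a median of 0.89. Its difference was 0.62 ± 0.13 (SE; adjusted p = 0.048), 94.6% of its 50-base windows occurred elsewhere, and its transcript aligned to those of 31 genes, including Gm6363 and Gm9242 in the triplicated segment. The source genes Snrpe and Hnrnpa3 were at -0.09 and -0.08.

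Slirp, which encodes an RNA-binding protein of mitochondria, was the only coding gene among the 8 members with the Bc1 pattern. The wt averages of 1.35, 1.40, 1.58, 1.36 and 1.76 lay below those of Ts66Yah, from 1.85 over 2.02 to 2.14. Here the difference was 0.52 ± 0.10 log2 units (SE; adjusted p = 0.032). The gene overlaps Snw1 and Alkbh1 on the other strand, and 91.8% of its 50-base windows also occurred in another gene's transcripts when either orientation was allowed.

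Gm9001 differs from the preceding copies in that its source is part of the triplicated segment. It is a processed pseudogene of Pigp, a subunit of the enzyme that starts the synthesis of GPI anchors, and lies outside the segment at chr6:75782358-75782756 (minus strand). The first 300 of its 399 bases are shown, because their 4 differences from Pigp, in capitals, are all that tells this stretch of the pseudogene from a gene with an additional copy in Ts66Yah.

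Gm9001: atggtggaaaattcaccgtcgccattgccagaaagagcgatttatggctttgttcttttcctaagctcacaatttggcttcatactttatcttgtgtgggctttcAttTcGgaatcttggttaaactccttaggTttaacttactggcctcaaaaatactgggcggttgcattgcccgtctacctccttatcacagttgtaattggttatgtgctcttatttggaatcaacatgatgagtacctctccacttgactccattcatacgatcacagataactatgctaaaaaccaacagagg

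In wt, Gm9001 averaged 0.63, 1.09, 1.04, 0.96 and 1.04 log2 CPM, and in Ts66Yah it ranged from 1.37 over 1.49 to 1.78. The groups were separate in the average and in both regions. Its difference of 0.57 ± 0.11 log2 units (SE), or 1.48-fold, stood beside 0.52 ± 0.062 for Pigp (adjusted p = 0.00055), and 56.6% of its 50-base windows occurred in another gene's transcript. Whether reads of Pigp were counted for Gm9001 was not tested. The correlation of its library deviations with those of Bc1 was -0.07 over 22 libraries.

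Gm8546, a copy of the mitochondrial lipid kinase gene Agk with 99.1% identity that lies within Hapln1 on the other strand, did not share the Bc1 pattern either (correlation -0.11). It averaged 1.64, 1.77, 1.41, 1.75 and 1.67 in wt and 2.03 over 2.06 to 2.29 in Ts66Yah. The difference was 0.45 ± 0.088 (SE; adjusted p = 0.038), and Agk was at -0.01.

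Altogether, 9 of the 25 members were pseudogenes (36%), compared with 7.82% of all genes tested outside the segment and 3 of the other 25 genes called in the average. Protein-coding genes made up 13 of the 25 (52%), compared with 79.3%. A total exon length under 400 bases was found for 5 members (20%) against 1.60% of all genes. The pseudogenes Tma7-ps, Atp5k-ps2, Tubb4b-ps2, AC115302.1, Snrpert and Gm11847 share their lowest wt libraries with Bc1, so these shares do not count independent genes. Bc1, Tma7-ps, Atp5k-ps2 and Snrpert are also among the 5 short members. Of 1255 other processed pseudogenes, 3 were called in the average, and the median log2 fold change of the 1255 was 0.012. The median level was 1.77 log2 CPM for the members and 3.46 for all genes.

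Among the coding genes that were higher, Gja5 and Pdlim3 are known from blood vessels and muscle. Gja5 encodes connexin 40, a gap junction protein of arterial endothelium. Its wt averages were -0.92, -1.24, -1.23, -0.80 and -0.67 log2 CPM, and those of Ts66Yah lay between -0.21 and 0.10, with a median of -0.01. The groups were well separated, by 0.94 ± 0.14 log2 units (SE) or 1.92-fold (adjusted p = 0.0048). The gene was close to the lower limit of measurement, with 9 to 51 reads a library, and its annotation overlaps Gpr89 on the other strand.

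Of 18 tested endothelial and pericyte markers, none was called in the average, 7 of 18 were higher, and their median was -0.01. At the unadjusted level, 7 had a p under 0.05. Over all 18971 genes outside the segment, 9336 were higher and 1882 had an unadjusted p under 0.05 (limma). The summed level of these markers was 9.22 to 9.34 log2 CPM in wt and 9.16 to 9.42 in Ts66Yah. Their part in the difference of Gja5 was not tested. In bulk tissue, a change in the number of cells of a type and a change in RNA per cell cannot be told apart.

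Pdlim3 encodes an actin-associated LIM protein that binds alpha-actinin. It averaged 0.12, 0.26, 0.30, 0.27 and 0.22 in wt and from 0.73 over 0.97 to 1.24 in Ts66Yah. The wt animals lay within 0.2 log2 units, although their HIP libraries ran from 0.491 to 1.02 CPM and their EC libraries from 1.27 to 2.58 CPM. The difference was 0.76 ± 0.11 (SE; adjusted p = 0.0043), with 0.71 in HIP and 0.82 in EC. Unlike Bc1, Pdlim3 was, among wt, lowest in the HIP and highest in the EC of replicates 1 and 4, and its correlation with Bc1 was -0.60.

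Dach2, a transcriptional cofactor of the dachshund family, had the smallest SD of the average relative to its regions. The wt animals stood at -0.57, -0.57, -0.69, -0.58 and -0.62, and Ts66Yah at -0.08 over -0.01 to 0.07. Its difference was 0.60 ± 0.11 (SE). The pooled SD of Dach2 was 0.055 in the average, compared with 0.195 in HIP and 0.193 in EC (0.286 times). Slirp (0.293 times) and Tma7-ps (0.311 times) followed. Dach2 was close to the lower limit of measurement, with 10 to 54 reads a library. A small spread of the average is part of what the rule selects on, and the share of counting noise in these SDs was not tested. The SE of the fit uses a variance moderated across genes, so it does not follow from the pooled SD alone. The estimates by region were 0.37 ± 0.15 in HIP and 0.82 ± 0.18 in EC (SE), and the test of their difference gave an unadjusted p of 0.057 and an adjusted p of 0.9998 (limma).

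Aldh1a1, the retinaldehyde dehydrogenase that makes retinoic acid, and Ncan, which encodes neurocan, a proteoglycan of the brain's extracellular matrix, were the most abundant coding genes among the higher members. Aldh1a1 averaged 5.55, 5.75, 5.50, 5.35 and 5.36 log2 CPM in wt and from 5.80 over 6.00 to 6.33 in Ts66Yah. It was higher by 0.50 ± 0.096 (SE), and between 963 and 3612 reads a library stood behind it.

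Ncan stood at 7.79, 7.61, 7.49, 7.75 and 7.75 in wt and from 7.86 over 8.03 to 8.17 in Ts66Yah. The difference was 0.35 ± 0.067 (SE), the smallest of the increases, with 0.43 in HIP and 0.26 in EC. The libraries of the genotypes did not overlap in HIP or in EC.

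Trem2 encodes a lipid-sensing receptor of microglia, the immune cells of the brain, and is known as a risk gene for Alzheimer disease. Its wt averages were 4.17, 3.68, 4.02, 3.67 and 4.30 log2 CPM, and those of Ts66Yah ran from 3.12 over 3.43 to 3.47. No Ts66Yah animal reached the lowest wt animal, in the average or in either region. Trem2 fell by 0.58 on the log2 scale (SE 0.12; adjusted p = 0.041), with -0.49 ± 0.11 in HIP and -0.66 ± 0.13 in EC (SE).

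In contrast to most members, the HIP and EC of an animal deviated together for Trem2, with a correlation of 0.92 over 11 animals, and the SD of its average was 0.977 times that of the regions. It was also the only member with an unadjusted p under 0.05 for the difference between regions (-0.17, 95% interval -0.32 to -0.02, unadjusted p = 0.026, adjusted p = 0.9998, limma). After adjustment over all 19074 genes tested, no gene passed for this difference. The quasi-likelihood test of edgeR on the counts of the EC called Trem2 (adjusted p = 0.048), so that it was not called only in the average under that test.

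Trem2 was the only call among 18 tested microglial markers. Over all 18971 genes outside the segment, 9635 had a value below 0 and 1882 reached an unadjusted p under 0.05 (limma). Of the 18 markers, 17 had a value below 0, with a median of -0.13, and 5 reached an unadjusted p under 0.05. Their summed level was 9.22 to 9.64 log2 CPM in wt and 9.20 to 9.48 in Ts66Yah, so that the groups overlapped. What part a change in these cells has in the value of Trem2 was not tested.

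Alox12b encodes a lipoxygenase best known from the lipid barrier of the skin and lies at chr11:69156989-69169792 (plus strand). It averaged 2.89, 2.78, 2.86, 2.72 and 2.87 log2 CPM in wt and from 2.24 over 2.39 to 2.47 in Ts66Yah. There was no overlap between the genotypes in the average, in HIP or in EC. Alox12b fell by 0.45 on the log2 scale (SE 0.069; adjusted p = 0.0048), with -0.37 in HIP and -0.54 in EC, and its reads had no 50-base window in common with another gene.

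The neighbouring gene Alox8 (chr11:69183932-69197843), on the opposite strand and 26.9 kb away between the first coordinates of both genes, moved the other way. It was higher by 0.49 ± 0.069 log2 units (SE; adjusted p = 0.0026) and was also called in EC, and is therefore no member. Aloxe3, on the other side of Alox12b, was at -0.07 (adjusted p = 0.87). For the remaining members the next gene on the same chromosome called in the average, where there was any, was at least 790 kb away by the same measure, and the members were spread over 15 chromosomes with at most 4 on any of them.

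Rpl7a, a protein of the large ribosomal subunit, averaged 3.45, 3.48, 3.81, 3.55 and 3.41 in wt and from 3.09 over 3.16 to 3.27 in Ts66Yah. It fell by 0.37 on the log2 scale (SE 0.074; adjusted p = 0.042). Copies of Rpl7a are numerous: its transcripts aligned to those of 72 other genes, 1 of them in the segment (Gm49641), and 3 small RNA genes lie within it. Of the 37 cytosolic ribosomal protein genes tested, Rpl7a was the only call, 9 had a positive value, and the median was -0.08. Over all 18971 genes outside the segment, 9336 had a positive value.

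A further 4 coding genes fell by less. Pnrc2, which links messenger RNA decapping to nonsense-mediated decay, averaged 5.36, 5.53, 5.49, 5.56 and 5.43 in wt and from 5.11 over 5.22 to 5.30 in Ts66Yah, a change of -0.27 ± 0.051 (SE). Rtca, an RNA phosphate cyclase, was at 5.31, 5.37, 5.45, 5.38 and 5.47 in wt and from 5.12 over 5.20 to 5.22 in Ts66Yah, the smallest change of all members (-0.21 ± 0.041, SE). Both had over 900 reads in each library.

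The zinc finger gene Zfp628 averaged 3.47, 3.43, 3.53, 3.47 and 3.66 in wt, and 3.11 over 3.16 to 3.29 in Ts66Yah (-0.32 ± 0.062, SE). Necab3, a neuronal calcium-binding protein gene, was at 5.36, 5.39, 5.36, 5.13 and 5.30 in wt and at 4.81 over 4.96 to 5.13 in Ts66Yah. Its lowest wt and highest Ts66Yah animals nearly met, and the change of -0.33 ± 0.065 (SE) consisted of -0.22 in HIP and -0.44 in EC.

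The 3 lower genes without a coding product were Gm15564, Gm44645 and Gm31520. Gm15564 is an antisense transcript of the Kpna1 and Parp9 region at chr16:35966752-35983230, on Mmu16 but proximal to the segment. It was abundant, with wt averages of 8.34, 7.93, 8.18, 8.02 and 7.75 log2 CPM and Ts66Yah averages from 7.26 over 7.55 to 7.66, and fell by 0.54 on the log2 scale (SE 0.10; adjusted p = 0.026). In EC its level in wt replicate 1, 467 CPM, was the highest of all libraries. Among wt, Gm15564 was highest in HIP of replicates 2 and 3 and in EC of replicates 1 and 4. These are the libraries in which Bc1 was lowest, and its correlation with Bc1 was -0.654.

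Gm44645, an unclassified transcript, averaged 1.63, 1.53, 1.39, 1.34 and 1.53 in wt and from 0.91 over 1.05 to 1.15 in Ts66Yah. Gm31520, a transcribed pseudogene, showed the largest decrease and the lowest counts, from 0 to 45 reads a library. Its averages were -1.22, -0.38, -0.60, -1.16 and -1.05 in wt and from -3.05 over -2.29 to -1.75 in Ts66Yah. The fitted change of -1.42 ± 0.24 (SE) depends on the prior count of 2 at such levels.

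Whether the genotype difference depended on the region was tested in the EC minus HIP values of each animal. None of the 19074 genes passed, and edgeR also called 0, with 791 genes outside the segment at an unadjusted p under 0.05. For Bc1 the difference of the regional effects was 0.01, with a 95% interval from -2.24 to 2.25, and for Tma7-ps from -2.10 to 1.93, so that even large differences between the regions could not be detected. For Rtca, in contrast, the interval was -0.18 to 0.21.

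In wt, 8 of the 25 genes (32%) were called for EC against HIP, compared with 49.8% of all genes outside the segment. Pdlim3, Ncan, Rtca, Necab3, Gm44645 and Trem2 were higher in EC, by 0.23 (Rtca) to 1.42 log2 units (Necab3). Dach2 and Aldh1a1 were higher in HIP, by 1.25 and 1.07 log2 units.

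Besides microglia and ribosomal proteins, 29 other gene lists were examined in the average, and the members stood in none of them. Hdac9 among 39 chromatin regulators was the only other gene called. Of 41 interferon response genes outside the segment, 39 had a positive value with a median of 0.23, but 0 were called, and 7 had an unadjusted p under 0.05. Over all 18971 genes outside the segment the median was -0.0022, 9336 had a positive value, and 1882 had an unadjusted p under 0.05 (limma). The genes of a list were measured in the same 11 animals and can vary together, so that such counts are not counts of independent genes.

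The calls rested on few animals to differing degrees. When each animal was left out in turn, 6 members were called in all 11 fits, namely Tma7-ps, Tubb4b-ps2, Gja5, AC115302.1, Pdlim3 and Alox12b. Of these, Tma7-ps, Tubb4b-ps2 and AC115302.1 have the Bc1 pattern, whose low libraries belong to different wt animals. Leaving out 1 animal therefore kept the other low libraries in the fit. Gm31520 was called in 10 fits and Dach2 in 8, whereas 10 members were called in at most 2. Of the members just inside the threshold, Gm44645 and Gm11847 (both 0.048) and Snrpert (0.046) were called in 1, 2 and 1 of the 11 fits. Just outside it, and uncalled in the regions, were the Wnt inhibitor gene Wif1 (0.72, adjusted p = 0.053), Gramd4 (-0.24, adjusted p = 0.055) and the pseudogene Tdpx-ps1 (-0.998, adjusted p = 0.056). The edgeR test of the summed counts called 21 of the 25 in the average, leaving out Bc1, Atp5k-ps2, Snrpert and Slirp, which are all of the Bc1 pattern. With limma voom and the animal as a random effect, none of the 8 members with the Bc1 pattern was called. Adjusted p in that fit was 0.149 for Tma7-ps, 0.150 for Tubb4b-ps2 and 0.094 for AC115302.1. Only Alox12b and Aldh1a1 were called under each of the 10 other ways of processing.

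**Figure D5:**
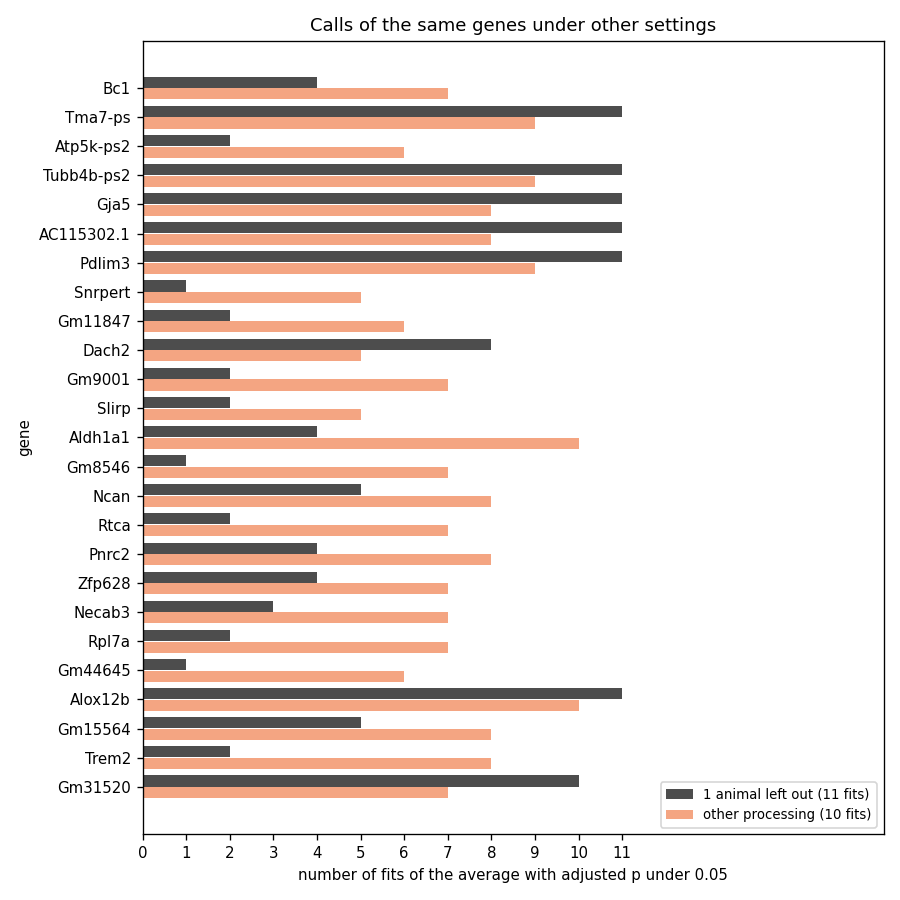
Number of fits of the average in which each of the 25 genes had an adjusted p under 0.05, for 11 fits that each left out 1 animal (dark bars) and for 10 other ways of processing (light bars; 9 for Gja5, Dach2 and Gm31520, which a stricter filter removed). Alox12b reaches the full length of both bars, whereas Snrpert, Gm8546 and Gm44645 kept the call in only 1 of the 11 fits.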

How the data were processed

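RNA-Seq libraries of the hippocampus and entorhinal cortex of 5 wt and 6 Ts66Yah male mice were analysed. The authors deposited raw counts of reads per gene for 22 libraries. According to the study's methods, single-end reads of 50 bases were mapped with Hisat2 to GRCm38 and counted with HTSeq-count on Ensembl release 99; the strand setting and the treatment of reads with several positions are not given in the sources used here. The labels describe poly(A) selection with a stranded kit and the study's methods a kit with ribosomal RNA depletion, and this was not resolved. bcl2fastq 2.17.1.14 stands in the submitters' processing notes. Tables of the authors' own comparisons (DESeq2 and FCROS fold changes, scores and p-values) were not used. Unmapped columns and rows without a gene numbered 0.

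Log2 CPM (edgeR 4.0.16, R 4.3.3) used TMM factors over all libraries and a prior count of 2; genes were filtered with filterByExpr. The HIP and EC values of each animal, joined by the animal number in the labels, were averaged and tested by genotype with limma 3.58.1 (trend), adjusted by Benjamini-Hochberg over 19074 genes. The same test was run in each region and on EC minus HIP. Each SE of a fold change comes from these fits, in which the variance of a gene is moderated across genes. The code was tested on simulated data. As the values are averages of log2 CPM, limma was the main test, and edgeR and DESeq2 1.42.0 on the counts served as alternatives.

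Symbols and positions came from GENCODE M21 (55144 of 55385 identifiers matched), as did the transcript sequences; members were aligned to all transcripts with blastn 2.17.0 (at least 90% identity over 80%). All 25 members are described, and 21 of them meet the rule of size (the 12 largest in each direction with at least 1 CPM in both regions and no overlap). The members, gene lists, tests and this rule were chosen with earlier results of these data known. No 2 libraries of the same genotype and region agreed within sampling noise, so each was counted. The labels do not give litters. Samples with the same replicate number did not deviate together in every pair, so numbers were not used to pair animals.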

Additional observations from a re-analysis of the deposited data

Results flagged for a closer look

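Within each genotype, the animal averages of the 25 genes were screened for an animal far from the others (Dixon's criterion, 50 groups). It marked 5 groups, where chance alone marks about 1 in 20. Atp5k-ps2 stood at 1.96 log2 CPM in wt replicate 5, with the other wt animals between 0.65 and 1.01, and at 2.40 in Ts66Yah replicate 4, with the others between 2.01 and 2.08. Gm8546 stood at 2.29 in Ts66Yah replicate 5, above 2.03 to 2.09 in the others. Gm9001 was at 0.63 in wt replicate 1, below 0.96 to 1.09. Trem2 was at 3.12 in Ts66Yah replicate 2, below 3.41 to 3.47, and its call was lost without that animal, as it was without 8 of the other 10.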

How the results depend on the processing

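Outside the segment, the 50 genes called in the average and the 25 called only there became 274 and 120 with DESeq2 (HIP 291, EC 50) and 144 and 107 with voom and the animal as a random effect (correlation 0.264). The replicate block, for which the check of shared numbers gave correlations of 0.038 to 0.113 and thus no pairing, left 24 and 15 (HIP 13). A block by the range of animal numbers, which leaves out wt replicate 1, left 28 in the average, 21 in HIP and 2 in EC. Without a filter on low counts, HIP had 25 calls, EC 7 and the segment median was 0.397. When each animal was left out in turn, the average had 24 to 64 calls, 13 to 41 were called only there, HIP had 20 to 71, EC 1 to 14, and the segment median was 0.569 to 0.586. The genes called only in the average were 15 without wt replicate 2 or 3, 41 without wt replicate 4, and 13, 15 and 16 without Ts66Yah replicate 2, 3 and 4. The average had 27 calls without wt replicate 1, 30 without wt replicate 2 and 27 without wt replicate 3, and 24, 24 and 27 without Ts66Yah replicate 2, 3 and 4. The cause of these changes was not tested.

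No member changed sign. Of the 25, DESeq2 called 25 in the average but only 11 remained uncalled in both regions; voom called 14, the replicate block 7, the range block 9 and the fit without a filter 12. A correction for GC content, added after seeing the data, called 19, and leaving out genes that edgeR calls in a region, also added then, left 24. Depth limits the low members: Tma7-ps, Gja5, Dach2 and Gm31520 had libraries with 10 reads or fewer.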
